A study of Mus musculus with 8 samples.

Results

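The genes described here are 32 genes of glycolysis and of the hypoxia response, taken by symbol from a list of names and found among 24639 listed genes. Of these, 22 encode glucose and lactate transporters, glycolytic enzymes and their regulators, and are called glycolytic genes, and 10 are genes known to be induced when oxygen is low, called hypoxia-inducible genes. They were counted in glomerular mesangial cells (MMC), the contractile, matrix-producing cells that hold the capillary tuft of the kidney glomerulus together, grown from wild-type (WT) C57BL/6J mice and from miR-379KO mice. The study screened for RNAs bound through miR-379 by comparing these cells in total RNA and after immunoprecipitation with anti-AGO2 beads (AGO2-IP), AGO2 being the Argonaute protein that carries microRNAs. The 8 samples form 4 groups of 2 replicates, A and B, namely total RNA and AGO2-IP of WT MMC and the same 2 assays of miR-379KO MMC.

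The miR-379KO mice are homozygous for a short deletion at miR-379, made with CRISPR-Cas9 nickase in C57BL/6J embryos, so every cell of the animal lacks the same stretch and no Cre or promoter limits it. Both genotypes were cultured alike in RPMI medium with serum as primary cells from sieved glomeruli, and no treatment in culture is named for the samples used here. For AGO2-IP the paper describes UV cross-linking of the cells, sonication and small RNA-seq. For total RNA it describes an mRNA library kit. The study calls A and B independent samples, but neither it nor the labels say whether they came from separate animals or cultures, and p-values therefore measure only the spread between these samples, part of which may be technical. In bulk RNA from a culture, fewer cells of a type and less RNA per cell cannot be told apart.

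Glycolysis splits glucose into pyruvate in the cytosol, and cells that make lactate dehydrogenase A and export lactate can run it with little oxygen. When oxygen falls, prolyl hydroxylases stop marking hypoxia-inducible factors (HIF) for destruction, and HIF then binds promoters at a short core, ACGTG or GCGTG, in the genes of many glycolytic enzymes, of the prolyl hydroxylases themselves and of collagen-modifying enzymes. Mesangial cells lay down collagen-rich matrix, and a shift toward glycolysis is a known feature of the diabetic kidney. MicroRNAs pair with messenger RNAs chiefly through their seed, bases 2 to 8, and guide AGO2 to sites that lie most often in the 3′-UTR.

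The sequence of miR-379-5p, the missing microRNA, is shown with the members' sites that match its seed. These sites mark members that could pair with it through a full seed match. Pairing of other kinds, sites elsewhere in the messages and sites for the other strand of miR-379 were not searched. Members without a listed site could therefore still be touched by the deletion. Seed bases are in capitals in the microRNA, and the complementary GTCTACC is in capitals in the sites, which are read from the longest annotated 3′-UTR in RefSeq on GRCm38.p6.
mmu-miR-379-5p, chr12:109709065-109709085, plus strand: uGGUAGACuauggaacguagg
Aldoc site, chr11:78326787-78326815, plus strand: cacataccaaaGTCTACCtccatgtgtgc
Hk1 site, chr10:62269585-62269613, minus strand: gtggcacccacGTCTACCgcaggcgtcca
Pfkfb4 site, chr9:109030948-109030976, plus strand: ccattcctaacGTCTACCaagttatacac
Slc16a1 site, chr3:104655776-104655804, plus strand: gctggcctctaGTCTACCagtggtgctca

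A GTCTACC match stood in the 3′-UTR of 4 of 22 glycolytic genes (18.2%) and of 0 of 10 hypoxia-inducible genes, compared to 776 of 19135 genes with an annotated 3′-UTR (4.06%). Median 3′-UTR length was 887 bases for glycolytic genes, 1314 bases for hypoxia-inducible genes and 828 bases over all. The 4 genes encode aldolase C, hexokinase 1, the fructose-2,6-bisphosphate regulator PFKFB4 and the lactate transporter MCT1 (Slc16a1). A match of letters is a description and not a measured binding site.

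Promoters are shown for 5 members, because the HIF core is what many genes of both sets are known to share. Whether the core bore on their levels here was not tested. Each window runs from 250 bases before to 50 bases after an annotated start in RefSeq on GRCm38.p6, on the strand of the gene, with ACGTG or GCGTG on either strand in capitals (CACGT or CACGC where the core lies on the opposite strand). Ldha and Bnip3 hold the most cores in their sets, Pgk1 is a textbook HIF target, Egln3 had the smallest p in total RNA, and Tpi1 holds none.
Ldha promoter, chr7:46845554-46845853, plus strand: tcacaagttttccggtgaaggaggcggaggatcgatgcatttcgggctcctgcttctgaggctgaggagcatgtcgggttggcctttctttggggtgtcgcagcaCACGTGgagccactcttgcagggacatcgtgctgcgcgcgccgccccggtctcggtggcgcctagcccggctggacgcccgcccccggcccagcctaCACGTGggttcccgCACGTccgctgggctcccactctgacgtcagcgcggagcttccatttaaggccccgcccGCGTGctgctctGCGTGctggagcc
Pgk1 promoter, chrX:106186850-106187149, plus strand: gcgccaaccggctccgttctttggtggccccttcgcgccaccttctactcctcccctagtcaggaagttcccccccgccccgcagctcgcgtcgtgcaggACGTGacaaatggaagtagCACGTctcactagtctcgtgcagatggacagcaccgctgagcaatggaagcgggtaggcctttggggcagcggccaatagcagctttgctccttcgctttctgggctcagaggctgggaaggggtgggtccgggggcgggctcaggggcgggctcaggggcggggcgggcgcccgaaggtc
Tpi1 promoter, chr6:124814109-124814408, minus strand: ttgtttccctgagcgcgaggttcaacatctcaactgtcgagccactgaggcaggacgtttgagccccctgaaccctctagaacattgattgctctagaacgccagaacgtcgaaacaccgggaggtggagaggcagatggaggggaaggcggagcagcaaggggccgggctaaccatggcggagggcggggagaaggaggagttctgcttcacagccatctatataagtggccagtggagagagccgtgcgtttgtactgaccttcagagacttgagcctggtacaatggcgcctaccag
Bnip3 promoter, chr7:138909457-138909756, minus strand: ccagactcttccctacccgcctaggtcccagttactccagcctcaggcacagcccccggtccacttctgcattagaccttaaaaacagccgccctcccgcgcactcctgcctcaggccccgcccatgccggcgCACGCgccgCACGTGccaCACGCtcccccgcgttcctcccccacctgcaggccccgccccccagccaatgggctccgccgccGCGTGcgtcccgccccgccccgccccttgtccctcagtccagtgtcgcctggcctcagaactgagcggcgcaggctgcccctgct
Egln3 promoter, chr12:54203825-54204124, minus strand: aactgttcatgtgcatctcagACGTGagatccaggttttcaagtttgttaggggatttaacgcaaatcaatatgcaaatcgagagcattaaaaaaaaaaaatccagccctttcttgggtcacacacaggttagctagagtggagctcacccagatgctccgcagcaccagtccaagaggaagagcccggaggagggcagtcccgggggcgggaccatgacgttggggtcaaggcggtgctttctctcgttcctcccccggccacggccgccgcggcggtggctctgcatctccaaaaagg

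A core stood in at least 1 window of 19 of 22 glycolytic genes (86.4%) and of 9 of 9 hypoxia-inducible genes with a window, compared to 12628 of 27025 genes (46.7%). Windows of glycolytic genes held 1.91 cores on average and those of hypoxia-inducible genes 2.5, compared to 0.802 over all windows, with the palindrome CACGTG counted once on each strand. Both sets also held more CpG dinucleotides, 18.4 and 25 per window compared to 12.4, and each core contains 1 such dinucleotide. The part of base composition in the number of cores was not tested. The Ldha window held 7 cores, the Bnip3 window 5, the Pgk1 window 2 and the Egln3 window 1. Ndrg1 has no window in the table used.

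Total RNA libraries held 17168230 to 22660743 gene counts. AGO2-IP libraries held 5587611 to 17095021, of which the ribosomal precursor Rn45s and Lars2 took up to 89.0%. This left 1115782 to 1875037 counts for other genes. WT AGO2-IP A and B held 17095021 and 9586299 gene counts beside 14910981 and 9472264 reads outside genes. In miR-379KO AGO2-IP A and B these were 6545652 and 5587611 beside 18126862 and 18125645. TMM factors were 0.598 and 0.904 in WT AGO2-IP and 1.31 and 1.41 in miR-379KO AGO2-IP. The part of this difference in the AGO2-IP changes was not tested. The 10 mesangial and pericyte markers summed to 16620 to 24640 CPM (gene counts scaled to a common library size) in total RNA, mostly from Acta2, Vim and Tagln. Thy1 had 0 to 3 counts per total RNA library, Pdgfra 4 to 6, Itga8 7 to 38 and Gata3 33 to 70. Pdgfrb, Cspg4 and Des lay between these and the high ones. By comparison, 5 endothelial markers summed to at most 2.09 CPM and 4 leukocyte markers to at most 1.37 CPM. Podocyte and tubule markers are given below with the library they moved with.

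Members of the glycolytic set were among the most abundant messenger RNAs of MMC, whereas the hypoxia-inducible genes were of middle to low level. Levels between genes are compared as CPM per kb of exon, averaged over the 4 total RNA libraries. Gapdh, which oxidises glyceraldehyde-3-phosphate, stood at 642 CPM per kb and ranked 87 among all genes. Aldolase A (Aldoa) followed at 476, lactate dehydrogenase A (Ldha) at 412 and pyruvate kinase (Pkm) at 378 CPM per kb, with ranks 112, 127 and 137. Phosphoglycerate mutase (Pgam1, 371) and phosphoglycerate kinase (Pgk1, 361) differed from Aldoa, Ldha and Pkm and from each other by less than the spread between libraries. Gapdh was above both in every total RNA library. Of the 22 glycolytic genes 8 ranked within the first 500, and of the 10 hypoxia-inducible genes none did.

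**Figure D1:**
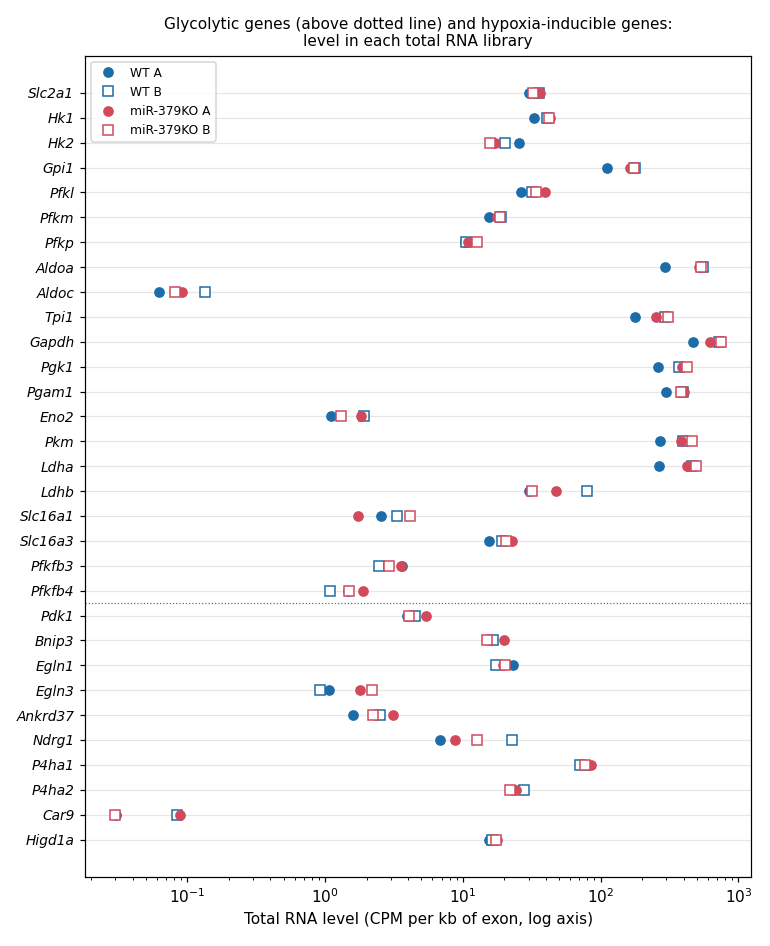
Level of 31 members in total RNA, in CPM per kb of exon on a log axis, with 1 point per library (circles A, squares B, blue WT, red miR-379KO); Eno1 is left out. Gapdh, Aldoa, Ldha, Pkm, Pgam1 and Pgk1 lie at the right, Aldoc and Car9 at the left, and the WT A point is the leftmost for most glycolytic genes.

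Among the hypoxia-inducible genes the catalytic subunit of collagen prolyl 4-hydroxylase, P4ha1, was the most abundant, at 78.4 CPM per kb (rank 773). Its paralog P4ha2 stood at 24.3 CPM per kb, the oxygen sensor prolyl hydroxylase Egln1 at 20.1, the mitophagy receptor Bnip3 at 16.8 and the mitochondrial protein Higd1a at 16.7. Pdk1, the kinase that inhibits pyruvate dehydrogenase in mitochondria, was at 4.47 CPM per kb, Ankrd37 at 2.35 and Egln3 at 1.49.

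Aldoc and Car9 were barely detected. Aldoc, the brain-type aldolase, had 3 to 7 counts per total RNA library, and Car9, the hypoxia-induced carbonic anhydrase, had 1 to 4. The entry for enolase 1 (Eno1) held 3, 3, 5 and 1 counts in the total RNA libraries, which cannot be read as the level of this glycolytic enzyme. A second enolase entry, Eno1b, is listed on the same chromosome 4 with no counts, and reads that fall on more than 1 gene went to the ambiguous total of the counting tool, where they cannot be assigned. Gapdh, Aldoa, Pgk1, Pgam1, Ldha and Ldhb have annotated pseudogene copies (1 to 3 each), and since reads not uniquely placed were left out, their levels are uncertain and may be too low.

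Isoenzyme choice was the same in all 4 total RNA libraries for most steps. Ldha made up 85.3% to 94.0% of lactate dehydrogenase messages per kb, so the form that favours lactate prevailed over Ldhb. For phosphofructokinase the liver-type Pfkl made up 50.7% to 57.6%, Pfkm 26.2% to 30.8% and Pfkp 16.1% to 19.7%. For lactate export, Slc16a3 (MCT4) made up 83.2% to 93.0% against Slc16a1 (MCT1). In each of these families the order of members was the same in WT and miR-379KO.

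In the hexokinase pair the make-up of WT and miR-379KO MMC did not overlap. Hk1, the housekeeping hexokinase, made up 56.3% and 66.8% of the pair in the WT libraries A and B, compared to 71.6% and 72.6% in the miR-379KO libraries. Hk2, the inducible form, was at 140 and 112 CPM in WT A and B, compared to 94.3 and 87.2 CPM in miR-379KO A and B. Both miR-379KO values lay below both WT values, with a log2 fold change of −0.47 ± 0.22 (SE, n = 2 per group) and an unadjusted p of 0.0686 (adjusted p = 0.9997) in edgeR's quasi-likelihood test. The difference in Hk2 was thus not separable from the spread between replicates.

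In total RNA, no member passed an adjusted p of 0.05 between miR-379KO and WT MMC. Of the 32 members 29 had enough counts to be tested, 20 glycolytic and 9 hypoxia-inducible, and the share of all 12321 tested genes past this threshold was 0%. At an unadjusted p under 0.05 only Egln3 was found among the 29 in edgeR's quasi-likelihood test, and DESeq2 called 0 members. The cutoff of the study's methods, a 1.5-fold change with an unadjusted p under 0.05, took Egln3 alone, compared to 0.682% of all tested genes.

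Egln3 encodes a prolyl hydroxylase that is itself induced by HIF. Its level was 2.86 CPM in WT A, 2.46 in WT B, 4.78 in miR-379KO A and 5.82 in miR-379KO B, from 48, 45, 110 and 99 counts. Both miR-379KO libraries were above both WT libraries, with a log2 fold change of 0.99 ± 0.35 (SE) and an unadjusted p of 0.0290, and with an adjusted p of 0.9997 in edgeR's test over all genes. Egln1, the main oxygen sensor, stood at 82.1 and 60.9 CPM in WT compared to 68.5 and 71.4 CPM in miR-379KO, where the groups overlapped (log2 fold change −0.03 ± 0.23). Egln3 accordingly made up 4.39% and 5.06% of the Egln1 and Egln3 messages per kb in WT libraries, compared to 8.42% and 9.68% in miR-379KO libraries.

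The other hypoxia-inducible genes showed no shared direction. P4ha1 was at 334 and 291 CPM in WT compared to 351 and 315 CPM in miR-379KO, and P4ha2 at 54.5 and 65.0 CPM in WT compared to 56.6 and 51.6 CPM in miR-379KO, overlapping in both cases. Bnip3 was at 28.0 and 29.1 CPM in WT compared to 35.0 and 26.1 CPM in miR-379KO. Ankrd37, from 24 to 65 counts, was at 1.43 and 2.24 CPM in WT and its miR-379KO values were 2.83 and 1.997 CPM, again overlapping. Ndrg1, a stress-response gene, varied most, from 19.9 CPM in WT A to 66.0 CPM in WT B, with 25.3 and 36.6 CPM in miR-379KO A and B. Its WT replicates lay farther apart than the group means. Over the 9 tested hypoxia-inducible genes the median log2 fold change was 0.10, compared to −0.01 over all tested genes. Egln3 and Higd1a, the latter at 30.8 and 32.02 CPM in WT compared to 34.7 and 34.4 CPM in miR-379KO, were above both WT values in both miR-379KO libraries, 2 of 9 compared to 9.89% of all tested genes.

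The glycolytic enzymes varied together between libraries, and the library that stood apart was WT A. Of the 20 tested glycolytic genes 16 had their lowest value in WT A, compared to 34.9% of all tested genes, and among genes with a mean over 1000 total RNA counts it was 13 of 14 glycolytic genes compared to 39%. Aldoa was at 533 CPM in WT A and at 1011, 948 and 984 CPM in WT B, miR-379KO A and miR-379KO B. Ldha was at 514 CPM in WT A and at 894, 822 and 955 CPM in the same other libraries. Triosephosphate isomerase (Tpi1) was at 261 CPM in WT A and at 431, 373 and 451 CPM. For Ldha and Tpi1 WT B lay between the miR-379KO values, for Aldoa it lay just above both, and WT A lay below all of them in each case.

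Gapdh was at 696 CPM in WT A and at 1090, 938 and 1116 CPM in the others. Pkm was at 1027 CPM in WT A and at 1530, 1469 and 1765 CPM in WT B, miR-379KO A and miR-379KO B. Glucose-6-phosphate isomerase (Gpi1), the second step of the pathway, was at 322 CPM in WT A and at 511, 472 and 501 CPM. In these genes WT A was low and the 3 other libraries lay close together. Pgam1 shared this, at 543 CPM in WT A and at 727, 741 and 708 CPM in the others. All glycolytic members together took 0.546% of counts outside Rn45s and Lars2 in WT A, 0.846% in WT B, 0.784% in miR-379KO A and 0.827% in miR-379KO B. Hypoxia-inducible members took 0.0621%, 0.0632%, 0.0656% and 0.0584%, without this gap, though P4ha1 alone held 5593 of their 9640 counts in WT A. Of the 9 tested, 4 (Pdk1, Ankrd37, Ndrg1 and Higd1a) had their lowest value in WT A, compared to 34.9% of all tested genes. Markers of other cells moved with the same library. Tubule markers summed to 2.62 CPM in WT A compared to 47.1, 26.9 and 9.46 CPM in WT B, miR-379KO A and miR-379KO B, with 3 of the 6 at 3 or fewer counts over all total RNA libraries. Podocyte markers were at 634 CPM in WT A compared to 244 CPM in WT B and to 574 and 329 CPM in miR-379KO A and B, and mesangial and pericyte markers at 16620 CPM in WT A compared to 21325 CPM in WT B. The part of cell make-up in the low glycolytic levels of WT A was not tested.

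**Figure D2:**
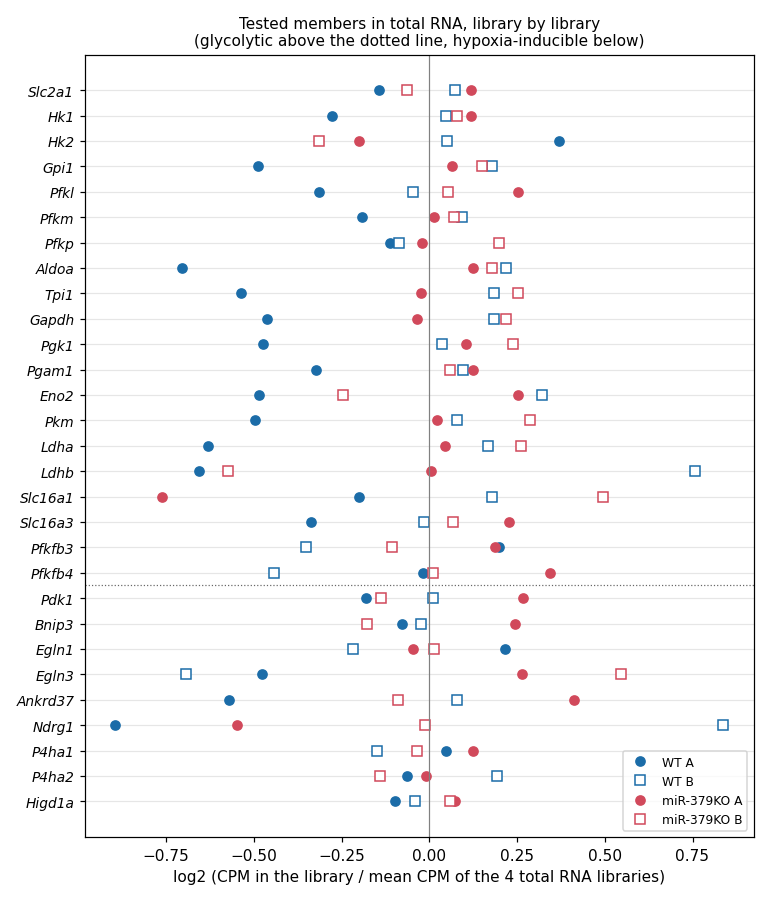
log2 of the CPM in each total RNA library over the mean of the 4 libraries, for the 29 tested members (circles A, squares B, blue WT, red miR-379KO). From Gpi1 to Ldha the filled blue WT A point lies left of the 3 others for nearly every glycolytic gene, Hk2 and Pfkfb3 have WT A at or near the top, and below the dotted line Egln3 shows both red points right of both blue points.

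The fold changes between genotypes in glycolysis depended on WT A. The median log2 fold change over the 20 tested glycolytic genes was 0.20, it was −0.02 without WT A and 0.44 without WT B, and 17 of the 20 values were positive. The gap of WT B over WT A had a median of 0.40 on the log2 scale over these genes, whereas miR-379KO B over miR-379KO A had a median of 0.01. Aldoa had a log2 fold change of 0.32 ± 0.36 (SE), Ldha 0.34 ± 0.34, Gapdh 0.20 ± 0.31 and Pkm 0.34 ± 0.31, each no larger than about its own error.

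Exon length moved with the same gap. Over the 3651 genes with a mean over 1000 total RNA counts and a known exon length, the log2 ratio of WT B to WT A correlated with log2 exon length at r = −0.56 (Spearman −0.62), and over 25 members with a mean over 100 counts at r = −0.54 (Spearman −0.57). For the total RNA fold change of miR-379KO against WT, r was −0.57 over the 3651 genes (Spearman −0.64) and −0.09 over the 25 members (Spearman −0.20). For the ratio of miR-379KO B to miR-379KO A it was −0.28 (Spearman −0.30) and 0.08 (Spearman −0.07). Shorter messages were lower in WT A, and Tpi1, Gapdh, Aldoa, Pgk1, Pgam1 and Ldha all have exons of 1469 to 1930 bases in all. Rn45s and Lars2 took 9.58% of gene counts in WT A compared to 4.67% to 7.27% in the other total RNA libraries. These genes share libraries and are not independent points. The part of length in the gap and in the fold changes between genotypes was not tested.

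Non-overlapping groups were found for 6 glycolytic genes above WT in both miR-379KO libraries, 6 of 20, compared to 9.89% of all tested genes. They were Hk1, Pfkl, Pfkp, Pgk1, Slc16a3 and Pfkfb4. Pgk1 was at 474 and 675 CPM in WT compared to 708 and 776 CPM in miR-379KO (log2 fold change 0.37 ± 0.28). Hk1 was at 148 and 185 CPM in WT compared to 194 and 189 CPM in miR-379KO (0.21 ± 0.22). Slc16a3 was at 39.7 and 49.7 CPM in WT compared to 58.8 and 52.6 CPM in miR-379KO (0.32 ± 0.22). In these 3 genes, and in Pfkl and Pfkp, WT A was the lowest library. Pfkl was at 108 and 130 CPM in WT compared to 160 and 139 CPM in miR-379KO (0.33 ± 0.22). Pfkfb4, from 69 to 150 counts, was at 5.07 and 3.78 CPM in WT compared to 6.52 and 5.17 CPM in miR-379KO (0.40 ± 0.34). For all 6 the adjusted p in edgeR's test was 0.9997.

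Some members followed no pattern of genotype. Ldhb, the heart-type lactate dehydrogenase, was at 39.1 CPM in WT A and 104 CPM in WT B, and at 61.7 and 41.3 CPM in miR-379KO A and B. Slc16a1 was at 11.3 and 14.7 CPM in WT compared to 7.65 and 18.3 CPM in miR-379KO. Pfkfb3, which makes the activator of phosphofructokinase, was at 19.1 and 13.0 CPM in WT compared to 18.9 and 15.4 CPM in miR-379KO. Slc2a1, the glucose transporter GLUT1, was steady at 78.4 and 91.1 CPM in WT compared to 94.0 and 82.8 CPM in miR-379KO (log2 fold change 0.06 ± 0.21). In these 4 genes the groups overlapped.

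In AGO2-IP, part of the glycolytic set was lower in miR-379KO than in WT MMC. Of the 20 glycolytic genes tested 10 fell and 0 rose at an adjusted p under 0.05 in edgeR's quasi-likelihood test, compared to 9.52% of all 13505 tested genes that fell and 21.4% that rose. Most genes of high level were lower in miR-379KO AGO2-IP, however, and among genes with a mean over 1000 total RNA counts 26.4% fell, compared to 9 of the 14 glycolytic genes of that level. The median log2 fold change of those 14 was −0.76 compared to −0.45 for all genes of that level. As a share of counts outside Rn45s and Lars2, before TMM scaling, glycolytic members took 0.289% and 0.373% in WT AGO2-IP A and B. In miR-379KO AGO2-IP A and B they took 0.247% and 0.235%. The size of the falls depended on the scaling, and another scaling is given below. With the cutoff of the study's methods 10 of 20 glycolytic genes and 4 of 7 hypoxia-inducible genes passed, compared to 39.4% of all tested genes.

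The largest fall was that of Slc2a1 (chr4:119108745-119137330, GRCm38.p6), the transporter that lets glucose in. It stood at 19.4 and 20.8 CPM in WT AGO2-IP A and B and at 9.74 and 6.77 CPM in miR-379KO AGO2-IP A and B, from 198, 180, 83 and 53 counts. All miR-379KO values were below all WT values, with a log2 fold change of −1.28 ± 0.24 (SE, n = 2 per group, adjusted p = 0.000639 in edgeR). Slc2a1 was past the adjusted threshold in each of the 12 alternatives run, with an adjusted p of 1.21e-05 to 0.0266, and its 3′-UTR holds no GTCTACC.

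Slc16a3 (chr11:120948484-120959000), which exports lactate, followed. It was at 11.3 and 8.33 CPM in WT AGO2-IP and at 5.04 and 3.45 CPM in miR-379KO AGO2-IP, with a log2 fold change of −1.20 ± 0.28 (adjusted p = 0.00276 in edgeR). These transporters, at both ends of the pathway, had the lowest log2 fold changes of the 27 members tested. The other lactate transporter, Slc16a1, was at 1.08 and 3.47 CPM in WT AGO2-IP and at 2.70 and 4.34 CPM in miR-379KO AGO2-IP, from 11 to 34 counts, and the groups overlapped (0.66 ± 0.45, adjusted p = 0.275).

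Among the enzymes, both hexokinases fell. Hk2 (chr6:82725025-82774454) was at 18.9 and 30.2 CPM in WT AGO2-IP and at 13.5 and 12.0 CPM in miR-379KO AGO2-IP (a log2 change of −0.94 ± 0.24, adjusted p = 0.00637 in edgeR). Hk1 (chr10:62268855-62379920), which holds a GTCTACC match, was at 15.1 and 19.9 CPM in WT AGO2-IP and at 12.1 and 10.9 CPM in miR-379KO AGO2-IP, a smaller change of −0.60 ± 0.23 with an adjusted p of 0.0464 in edgeR. That call held in 3 of 12 alternatives. Gpi1 fell by 0.78 ± 0.23 on the log2 scale, from 32.2 and 40.2 CPM to 21.8 and 20.3 CPM, and Pfkl fell by 0.73 ± 0.23, from 13.7 and 11.4 CPM to 7.63 and 7.54 CPM. The call of Pfkl held in 5 of 12 alternatives and that of Gpi1 in 7.

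In the later steps of glycolysis, Aldoa, Tpi1, Gapdh and Pkm fell. Aldoa (chr7:126795234-126800994), which splits fructose-1,6-bisphosphate, was at 53.2 and 71.1 CPM in WT AGO2-IP and at 35.4 and 30.02 CPM in miR-379KO AGO2-IP (−0.92 ± 0.25, adjusted p = 0.00831 in edgeR). Gapdh (chr6:125161852-125166467) was at 117 and 150 CPM in WT AGO2-IP and at 74.9 and 68.5 CPM in miR-379KO AGO2-IP, with a log2 fold change of −0.90 ± 0.27 (adjusted p = 0.0146 in edgeR). Both groups were apart for these enzymes. Tpi1 was at 21.0 and 23.9 CPM in WT AGO2-IP and at 13.4 and 10.9 CPM in miR-379KO AGO2-IP (−0.89 ± 0.23). Pkm was at 100 and 142 CPM and at 68.5 and 63.4 CPM (−0.87 ± 0.27). Here too no miR-379KO value reached a WT value.

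Pgk1, Pgam1 and Ldha lay lower in both miR-379KO libraries without passing the adjusted threshold. Their log2 fold changes were −0.57 ± 0.24, −0.57 ± 0.25 and −0.57 ± 0.24, with adjusted p of 0.0753, 0.0763 and 0.0740 in edgeR. Both miR-379KO libraries were below both WT libraries for 15 of 20 glycolytic genes, compared to 32.2% of all tested genes and 69.7% of genes with a mean over 1000 total RNA counts. None of these 20 had both miR-379KO libraries above both WT libraries, and Aldoc, too low to be tested, did so at 0.392 and 0.116 CPM in WT compared to 0.587 and 0.511 CPM in miR-379KO, from 4, 1, 5 and 4 counts. Pfkm, Pfkp, Eno2, Ldhb, Pfkfb3 and Pfkfb4 did not pass, with log2 fold changes from −0.49 (Pfkm) to 0.44 (Pfkfb3).

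**Figure D3:**
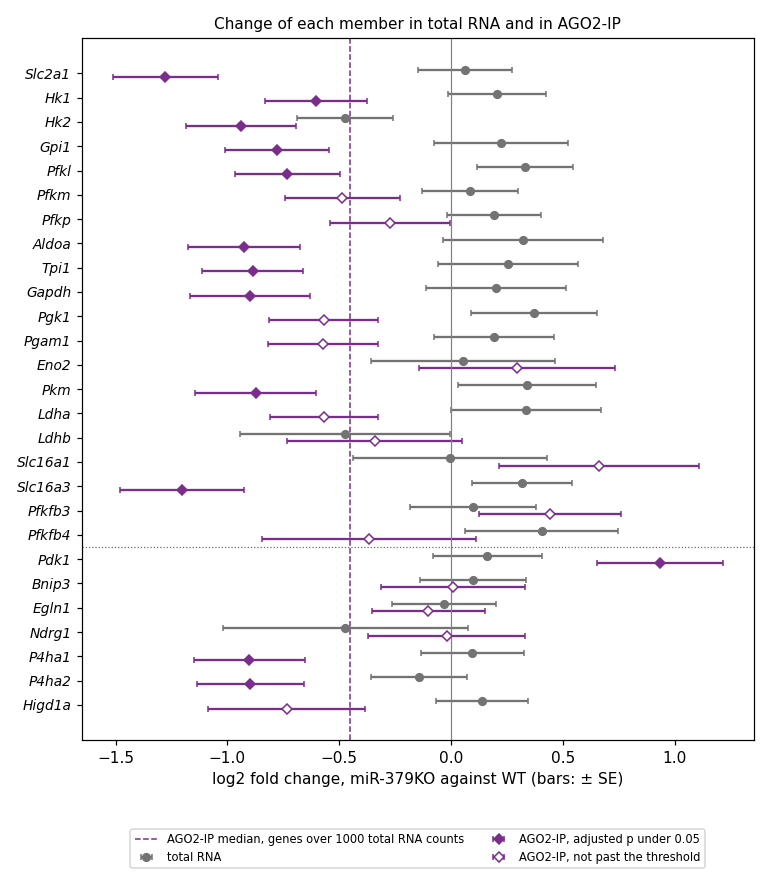
log2 fold change of miR-379KO against WT with its SE, in total RNA (grey circles) and in AGO2-IP (purple diamonds, filled past an adjusted p of 0.05), for the 27 members tested in AGO2-IP. Filled diamonds lie from −1.28 (Slc2a1) to −0.60 (Hk1) except that of Pdk1 at 0.93, the grey points lie between −0.47 and 0.40, and the dashed line marks −0.45, the AGO2-IP median of genes over 1000 total RNA counts.

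Hypoxia-inducible genes did not change one way in AGO2-IP. Of the 7 tested, 1 rose and 2 fell, compared to 21.4% and 9.52% of all tested genes, and their median log2 fold change was −0.10. Both that fell had a mean over 1000 total RNA counts, where 26.4% of genes fell. P4ha1 (chr10:59323197-59373304) was at 69.5 and 82.0 CPM in WT AGO2-IP and at 41.5 and 39.5 CPM in miR-379KO AGO2-IP, a log2 fold change of −0.90 ± 0.25 (adjusted p = 0.00931 in edgeR). P4ha2 (chr11:54100924-54131668) was at 14.8 and 14.9 CPM and at 9.50 and 6.39 CPM, also −0.90 ± 0.24 (adjusted p = 0.00784 in edgeR). These enzymes hydroxylate proline in collagen, and both were apart between genotypes.

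Pdk1 (chr2:71873215-71903858) was the only member that rose in AGO2-IP. It was at 3.53 and 3.24 CPM in WT AGO2-IP and at 6.22 and 6.77 CPM in miR-379KO AGO2-IP, from 36, 28, 53 and 53 counts. The groups were apart, with a log2 fold change of 0.93 ± 0.28 (adjusted p = 0.0152 in edgeR), and the call held in 4 of 11 alternatives. In total RNA it was at 21.8 and 24.8 CPM in WT compared to 29.7 and 22.4 CPM in miR-379KO. Genes of cell types nearly absent from total RNA were higher in miR-379KO AGO2-IP too, with leukocyte markers summing to 2.89 to 4.31 CPM in WT AGO2-IP and to 8.45 to 12.4 CPM in miR-379KO AGO2-IP, and endothelial markers to 2.31 to 4.12 and to 6.69 to 8.18 CPM. The part of this rise of genes of low level in the Pdk1 value was not tested.

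Higd1a was at 3.04 and 4.16 CPM in WT AGO2-IP and at 1.99 and 2.30 CPM in miR-379KO AGO2-IP, apart but not past the threshold (−0.73 ± 0.35, adjusted p = 0.112 in edgeR). Bnip3, Egln1 and Ndrg1 lay near 0, at 0.01 ± 0.32, −0.10 ± 0.25 and −0.02 ± 0.35. Aldoc, Eno1, Egln3, Ankrd37 and Car9 had too few counts in AGO2-IP to be tested, with 4, 6, 5 and 14 for Egln3.

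The AGO2-IP calls depended on the libraries and settings used. The 13 calls among members became 1 without miR-379KO AGO2-IP B and 6 without WT AGO2-IP B, 6 with DESeq2 and 1 when genes needed a mean of 50 counts, while the share of all genes called went from 30.9% to 6.42%, 15.6%, 5.94% and 5.51%. Of 12 alternatives, the call held in 10 for Slc16a3, in 9 for P4ha1 and P4ha2, in 8 for Hk2, Aldoa, Tpi1 and Gapdh and in 7 for Pkm. All members that passed the threshold kept their direction under every alternative run. Scaling by genes of the total RNA filter moved the median of all genes by more than 0.1, from −0.01 to 0.16 on the log2 scale, and the glycolytic median was then −0.42.

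The change in AGO2-IP less the change in total RNA, tested in 1 model over all 8 libraries, was past the adjusted threshold for 0 of 31 members, and for 0% of all 17429 tested genes. At an unadjusted p under 0.05 it was negative for 13 glycolytic and 3 hypoxia-inducible genes in edgeR's quasi-likelihood test, compared to 10.9% of all tested genes, and DESeq2 called 2 members compared to 0.654% of all genes. Among genes with a mean over 1000 total RNA counts it was 12 of 14 glycolytic genes compared to 35.5%. Slc16a3 had the lowest p of the members, with a difference of −1.72 ± 0.40 on the log2 scale (adjusted p = 0.229 in edgeR), and Slc2a1 had −1.55 ± 0.37 (adjusted p = 0.229 in edgeR). Without WT total RNA B, 15 members passed the adjusted threshold, all lower, compared to 7.71% of all genes and 25.9% of genes with a mean over 1000 total RNA counts.

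Libraries of the same letter and genotype deviated together across the 2 assays (r = 0.32 in WT and 0.26 in miR-379KO over 4856 genes), though no source says that a letter marks 1 culture. In a fit added after these values were seen, with the letter within each genotype as a block, 13 of 31 members passed the adjusted threshold, all lower, compared to 5.61% of all tested genes. Of the 17 members with a mean over 1000 total RNA counts 12 passed, compared to 20.4% of all genes of that level. Slc16a3 then had −1.75 ± 0.35 (adjusted p = 0.000323 in edgeR) and Slc2a1 −1.58 ± 0.33 (adjusted p = 0.000491 in edgeR). Whether the change differed between assays thus depended on how the libraries were linked.

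Over the glycolytic set the median of this difference was −1.01, over the hypoxia-inducible set −0.19, and over all genes with a mean over 1000 total RNA counts −0.68. The hypoxia-inducible genes that reached an unadjusted p under 0.05 were P4ha1 (−1.22 ± 0.37), Higd1a (−1.09 ± 0.41) and P4ha2 (−0.96 ± 0.37). Bnip3, Egln1, Egln3 and Ndrg1 did not. The total RNA values in this difference include the low glycolytic levels of WT A described above.

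Recovery, the level in AGO2-IP against that in total RNA of the same genotype, was called at a 2-fold difference with an adjusted p under 0.05. Cell preparation and library protocol changed together with the assay. The part of AGO2 binding in recovery therefore cannot be told apart from theirs. Both assays were scaled jointly by TMM factors, and values are relative to that scaling, not amounts of RNA. The median over all tested genes was 0.49 on the log2 scale in WT and 0.47 in miR-379KO, and over genes with a mean over 1000 total RNA counts −0.45 and −1.09. In WT MMC 7 of 21 tested glycolytic genes were lower in AGO2-IP, compared to 7.33% of all 17429 tested genes, and of those with a mean over 1000 total RNA counts 7 of 14 compared to 21.7%. The 7 were Gpi1, Aldoa, Tpi1, Pgk1, Pgam1, Ldha and Ldhb, with log2 values from −1.06 (Gpi1) to −2.28 (Ldhb). Ldha, for example, took 514 and 894 CPM in WT total RNA and 33.3 and 46.4 CPM in WT AGO2-IP, where CPM of each assay are relative to its own total, and its recovery was −1.68 ± 0.34 on the log2 scale (adjusted p = 0.000643 in edgeR). Pgam1 had 36.7 and 52.8 CPM in WT AGO2-IP (−1.35 ± 0.31) and Ldhb 2.75 and 2.66 CPM (−2.28 ± 0.64). No hypoxia-inducible gene was called lower.

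Gapdh did not follow the other abundant enzymes in WT. Its recovery was −0.27 ± 0.32, at 696 and 1090 CPM in total RNA and 117 and 150 CPM in AGO2-IP, whereas that of Pgk1, the next enzyme, was −1.33 ± 0.31, at 474 and 675 CPM in total RNA and 35.0 and 47.2 CPM in AGO2-IP. Higher in AGO2-IP than in total RNA were Pfkfb4 with 85 and 69 counts in total RNA and 20 and 13 in AGO2-IP (1.15 ± 0.46, adjusted p = 0.0448 in edgeR), and Aldoc and Car9, compared to 35.7% of all tested genes. Aldoc had 4 and 1 counts and Car9 5 and 1 counts in WT AGO2-IP, at or near the limit of 3 counts, and no fold is given for them.

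The members best kept in WT AGO2-IP were P4ha2 (0.47 ± 0.26), P4ha1 (0.45 ± 0.26), Slc2a1 (0.41 ± 0.25), Pfkfb3 (0.36 ± 0.32), Slc16a3 (0.29 ± 0.27) and Hk2 (0.14 ± 0.26), among those with a mean over 100 total RNA counts. None of these 6 passed the threshold for a difference from total RNA. Of the 6, Slc2a1, Slc16a3, Hk2, P4ha1 and P4ha2 are also members that fell in AGO2-IP in miR-379KO, in a comparison that uses the same WT AGO2-IP libraries.

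In miR-379KO MMC 14 of 21 glycolytic genes were lower in AGO2-IP, compared to 19.3% of all tested genes, and 13 of 14 with a mean over 1000 total RNA counts compared to 53.8%. Tpi1 had −2.80 ± 0.33, Ldha −2.77 ± 0.35, Aldoa −2.60 ± 0.36 and Pgk1 −2.46 ± 0.32 on the log2 scale, each with a lower value than in WT. Egln1 (−1.14 ± 0.24) and Higd1a (−1.73 ± 0.30) were the 2 hypoxia-inducible genes called lower, and Egln1 stood at 6.80 and 6.26 CPM in miR-379KO AGO2-IP. Pfkm was at 55.2 and 57.4 CPM in miR-379KO total RNA and at 5.63 and 5.37 CPM in miR-379KO AGO2-IP (−1.08 ± 0.26). Aldoc and Car9, with 4 to 8 counts per AGO2-IP library, were again called higher, compared to 41.6% of all tested genes. Slc2a1 was at −1.14 ± 0.27 and Slc16a3 at −1.43 ± 0.30, past the threshold in miR-379KO but not in WT, and the test of that difference is the one given above, in which both passed only with the letter within genotype as a block or without WT total RNA B.

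**Figure D4:**
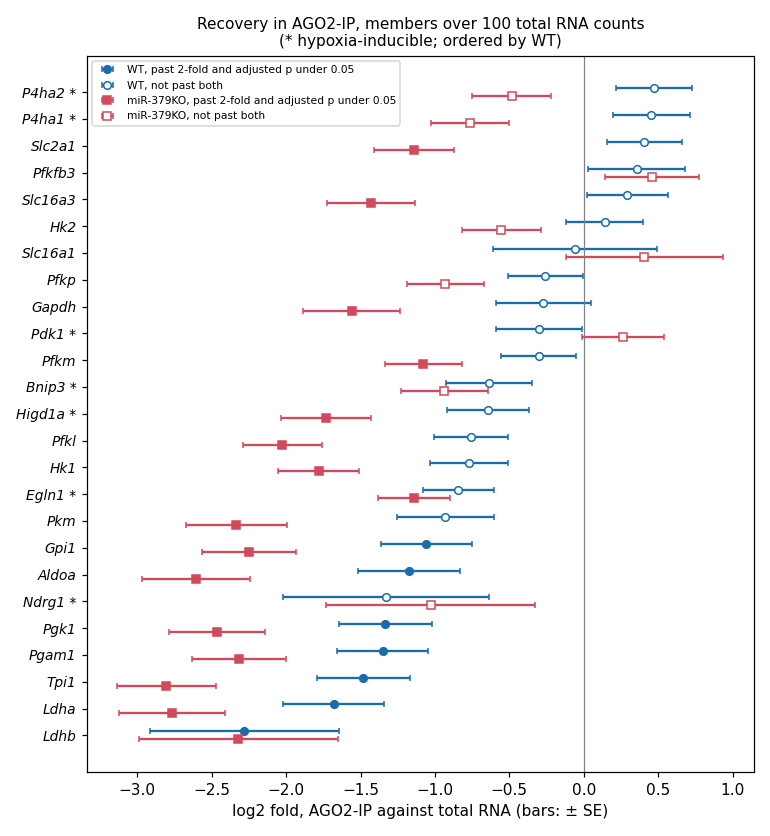
log2 fold of AGO2-IP against total RNA with its SE, in WT (blue circles) and miR-379KO (red squares), for the 25 members with a mean over 100 total RNA counts, ordered by the WT value. P4ha2, P4ha1, Slc2a1, Pfkfb3, Slc16a3 and Hk2 lie at the top with WT values above 0, Tpi1, Ldha and Ldhb at the bottom, and the red squares lie left of the blue circles for most glycolytic genes.

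Recovery went with exon length. Over 25 members with a mean over 100 total RNA counts, the log2 recovery correlated with log2 exon length at r = 0.55 in WT (Spearman 0.50) and r = 0.65 in miR-379KO (Spearman 0.64), and over the 3651 genes with a mean over 1000 counts at r = 0.63 and r = 0.75. In miR-379KO the short messages Tpi1 (1469 bases of exon), Aldoa (1824) and Ldha (1930) were recovered least of these members. In WT the lowest was Ldhb (1304). Gapdh (1496) lay above all of these in both genotypes. The points share 8 libraries and are given as a description. The part of length in the low recovery of glycolytic enzymes was not tested.

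Of the 4 members with a GTCTACC match, 1 passed in AGO2-IP, compared to 30.9% of all tested genes. Hk1 fell in AGO2-IP, and that call held in 3 of 12 alternatives. Its mean was over 1000 total RNA counts, a level at which 26.4% of genes fell. Slc16a1 was at 0.66 ± 0.45 and Pfkfb4 at −0.37 ± 0.48 without passing, and Aldoc was too low to test. In total RNA their log2 fold changes were 0.21 ± 0.22 for Hk1, −0.01 ± 0.43 for Slc16a1 and 0.40 ± 0.34 for Pfkfb4. Of the 10 glycolytic genes that fell in AGO2-IP, Hk1 alone holds the match.

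Among 85 genes of neighbouring pathways, 69 could be tested in total RNA and 0 passed the adjusted threshold in edgeR or DESeq2. Adrenomedullin (Adm), a vasodilator peptide induced by HIF, was the only one with an unadjusted p under 0.05, at 11.5 ± 1.48 CPM in WT compared to 21.4 ± 2.64 CPM in miR-379KO (SD, n = 2). Its log2 fold change was 0.89 ± 0.24 (SE), with an unadjusted p of 0.0104 and an adjusted p of 0.9997 in edgeR's test. The muscle enolase Eno3 came next (0.89 ± 0.38, unadjusted p of 0.0548 in edgeR's test), and the lowest p among those with lower values were those of Txnip (−0.50 ± 0.22) and Ddit4 (−0.44 ± 0.21), at 0.0626 and 0.0757. None of these 4 passed. Hif1a, the oxygen-regulated subunit of HIF, was at 189 ± 40.1 CPM in WT compared to 154 ± 3.12 CPM in miR-379KO, and Vegfa at 130 ± 20.2 and 111 ± 0.752 CPM.

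In AGO2-IP, 68 of the 85 were tested, 5 rose and 14 fell in miR-379KO, compared to 21.4% of all tested genes that rose, 9.52% that fell and 26.4% that fell among those with a mean over 1000 total RNA counts. The mitochondrial phosphoenolpyruvate carboxykinase Pck2 fell by 1.30 ± 0.24 on the log2 scale, the HIF-induced repressor Bhlhe40 by 1.11 ± 0.33 and the lysyl hydroxylase Plod1 by 1.07 ± 0.23. Of gluconeogenesis and the side branches 7 of 17 tested genes fell and 1 rose, and of other hypoxia-inducible genes 5 of 20 fell and 0 rose. The pentose phosphate genes of that list, singled out after their values were seen, were G6pdx (−0.88 ± 0.31), Pgls (−0.86 ± 0.32), Pgd (−0.85 ± 0.24), Tkt (−0.84 ± 0.25) and Taldo1 (−1.05 ± 0.28), which fell, Rpe (0.76 ± 0.28), which rose, and Rpia (0.35 ± 0.46), which did not pass. Basigin (Bsg), the partner that carries lactate transporters to the membrane, fell by 0.87 ± 0.25.

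Of the 5 that rose, the largest were Slc16a7 (1.80 ± 0.51), Mlxipl (1.76 ± 0.49) and Hif3a (1.41 ± 0.48), from 3 to 22, 4 to 13 and 4 to 17 counts per AGO2-IP library. Mlxipl and Hif3a had at most 2 counts in any total RNA library. Genes of pyruvate entry into mitochondria and of pyruvate dehydrogenase, 12 tested, had 0 calls in AGO2-IP by edgeR, with a median log2 fold change of −0.12. In recovery, of 79 tested neighbouring genes 12 stood higher in WT AGO2-IP than in WT total RNA and 10 lower, compared to 35.7% and 7.33% of all tested genes. In miR-379KO 15 stood higher and 26 lower, compared to 41.6% and 19.3%.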

How the data were processed

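Total RNA and AGO2-IP RNA of WT and miR-379KO MMC were measured by sequencing, with a different library protocol described for each assay. The authors deposited gene counts, whole reads per gene without normalization, after alignment to mm10 with TopHat and Bowtie2 and reverse-stranded counting with HTSeq on UCSC RefSeq genes. Strand was used, so antisense genes were kept apart. Reads not uniquely placed were left out. Closing lines of each list (reads outside genes, ambiguous, not uniquely placed) were not used as genes.

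Members and lists were chosen with earlier results of these data known. Counts were tested in edgeR 4.0.16 (R 4.3.3) with TMM factors, filterByExpr (minimum count 10), robust dispersions and the quasi-likelihood test, adjusted by Benjamini-Hochberg over all tested genes, with calls at 0.05 and, for recovery, 2-fold. Genotypes were compared on the 4 libraries of each assay, and recovery and the difference between assays on all 8. CPM used TMM-scaled library sizes within an assay. Values in every sample are given for members called in any comparison, for the 4 of each set with the largest change in total RNA and the 4 with the highest level per kb, and for members added to complete an enzyme family after their values were seen. Neighbouring genes were named where called (up to 3 per direction by size) or, with none called, by the 2 lowest p per direction. Some pentose phosphate genes, Bsg, Hif1a and Vegfa were named after their values were seen. Of 24639 entries, 23598 matched RefSeq on GRCm38.p6 by symbol and 716 by synonym.

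Replicates of each group differed by more than sampling noise (chi-square tests of their counts), so each counted once. Letters A and B recur in all groups, and same-letter samples did not deviate together within an assay (r = −0.07 in total RNA, 0.04 in AGO2-IP) but did so across assays within a genotype (r = 0.32 in WT, 0.26 in miR-379KO). With only 2 letters, and no source that ties a letter to 1 culture, the samples were not treated as paired. On simulated counts with 200 genes changed by 2 on the log2 scale, the 3 kinds of fit recovered most of them. Alternatives were RLE factors, TMM factors from genes of the total RNA filter, no filter, a mean of 50 counts, DESeq2 1.42.0, the letter as a replicate block, the letter within genotype as a block (chosen after seeing the data), all 8 libraries in 1 fit, no Rn45s and Lars2, and omission of each library.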

Additional observations from a re-analysis of the deposited data

How the results depend on the processing

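With 2 libraries per group and tested AGO2-IP members at 6 to 1299 counts per library, small differences were beyond reach, and where a library was left out the lone sample was assumed to vary like the others. In total RNA, 0 members passed under every alternative, and 318 of 318 single-gene values kept their side. In AGO2-IP, 13 members passed between genotypes, and 1 with a minimum mean of 50 counts, 6 with DESeq2, 5 with all 8 libraries in 1 fit and 1 (without miR-379KO AGO2-IP B) to 14 with 1 library left out, 6 of them without WT AGO2-IP B. Calls over all genes, 4173, became 274, 802 and 686 under the first 3 of these, and the share of them that were higher was 69.2%, compared to 85.4% with TMM factors from genes of the total RNA filter, 85.4% with a mean of 50 counts, 54.1% with no filter and 54.8% with all 8 libraries. Of 315 single-gene values 57 lost their call, 8 gained one and 0 turned. The hypoxia-inducible median in AGO2-IP turned to 0.069 with TMM factors from genes of the total RNA filter. The difference between assays gave 0 calls, 2 with DESeq2 and 0 to 15 with 1 library left out, 15 without WT total RNA B. Recovery in WT gave 10 calls, 6 with a minimum mean of 50 counts and 6 (without WT total RNA B) to 13 with 1 library left out, and its hypoxia-inducible median ran from −0.57 to 0.030, the latter without WT total RNA B. Recovery in miR-379KO gave 18 calls. With the letter as a replicate block the calls were 0 in total RNA, 11 in AGO2-IP, 0 for the difference, 8 for recovery in WT and 17 in miR-379KO. With the letter within genotype as a replicate block, chosen after seeing the data, they were 13 for the difference, 10 for recovery in WT (9 of them among the 10 without the block) and 19 in miR-379KO. The causes of these shifts were not tested.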
